A study of Homo sapiens with 62 samples.

Results

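Clone 4 is 1 of 4 single-cell clones of the MCF10A line from which an extra copy of the long arm of chromosome 1 (1q) was deleted, and it was chosen here by a measured value, the median expression of genes of the long arm of chromosome 19 (19q), which had been seen to be higher in it than in the other clones. Its 4 libraries were set against the 12 libraries of clones 1 to 3, so that the comparison covers 16 of the 20 MCF10A libraries and of the 62 libraries of the series. MCF10A is an immortalised, non-tumorigenic human mammary epithelial line. Clones 1 to 3 were made with the TR version of ReDACT and clone 4 with the CO version. ReDACT is a set of CRISPR methods that remove an extra chromosome arm, in which TR stands for telomere replacement and CO for CRISPR only. Each clone was sequenced without and with expression of hRASV12, a constitutively active form of the small GTPase HRAS (called hRas below), in 2 biological replicates per state. All 16 libraries therefore carry the 1q deletion. The 4 unedited libraries (WT), 2 without and 2 with hRas, keep the extra 1q and are given only as a reference. The labels do not say whether the cells of clone 4 with hRas were derived from those without. Since clone 4 is the one CO clone, the clone and the version cannot be told apart, and its 4 libraries are repeat samples of a single clone, so that p-values measure the spread between libraries and not between independent clones.

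A gained or lost chromosome arm changes the template dose of many genes at once, and in human cells most transcripts follow the dose of their gene. Transcripts of genes elsewhere can change too, among them genes of the cell cycle, of stress responses and of the cell surface and matrix. The long arm of chromosome 19 is gene-dense. It carries many zinc-finger transcription factors, several ribosomal proteins, kinases such as AKT2 and PAK4, the cytokine gene TGFB1, the NF-kB subunit gene RELB and the death effectors BAX and BBC3.

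Total counts lay between 15500424 and 28251847 per library over the 16 libraries. The 50 most abundant genes took 15.5% to 18.4% of the counts in clone 4 and 13.2% to 15.4% in clones 1 to 3, and mitochondrial genes took 2.27% to 3.12% and 1.25% to 3.07%. The part of these shares in the results was not tested. Clone 4 expressed the basal epithelial keratin KRT5 at 5843 and 4585 CPM (read counts scaled to library size) without hRas and at 2409 and 2524 CPM with hRas, and E-cadherin (CDH1) at 388, 294, 158 and 157 CPM, as the breast epithelial label says. The leukocyte markers PTPRC and CD3E reached at most 6 and 3 counts in any MCF10A library. In bulk RNA, fewer cells of a type and less RNA per cell cannot be told apart.

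Both libraries of clone 2 with hRas stood apart from the rest. They had low levels of several epithelial transcripts, with EPCAM at 3.74 and 5.1 CPM, CDH1 at 3.3 and 2.63 CPM and KRT5 at 572 and 548 CPM, while the basal keratin gene KRT14 was at 66.3 and 57.1 CPM, within the range of the other libraries, and vimentin (VIM), a mesenchymal filament protein, was at 1531 and 1596 CPM. These 2 libraries belong to the reference side of every comparison with hRas, and counts below are given with and without them, an alternative chosen after the data had been seen. On the first principal component of log2 CPM (34.6% of the variance) they lay at 88.2 and 88.3, clone 4 with hRas at 49.9 and 50.6, and all other libraries between -32.9 and 3.29. On the second component clone 4 lay between 40.3 and 48.4, and no other library was above 2.42.

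**Figure D1:**
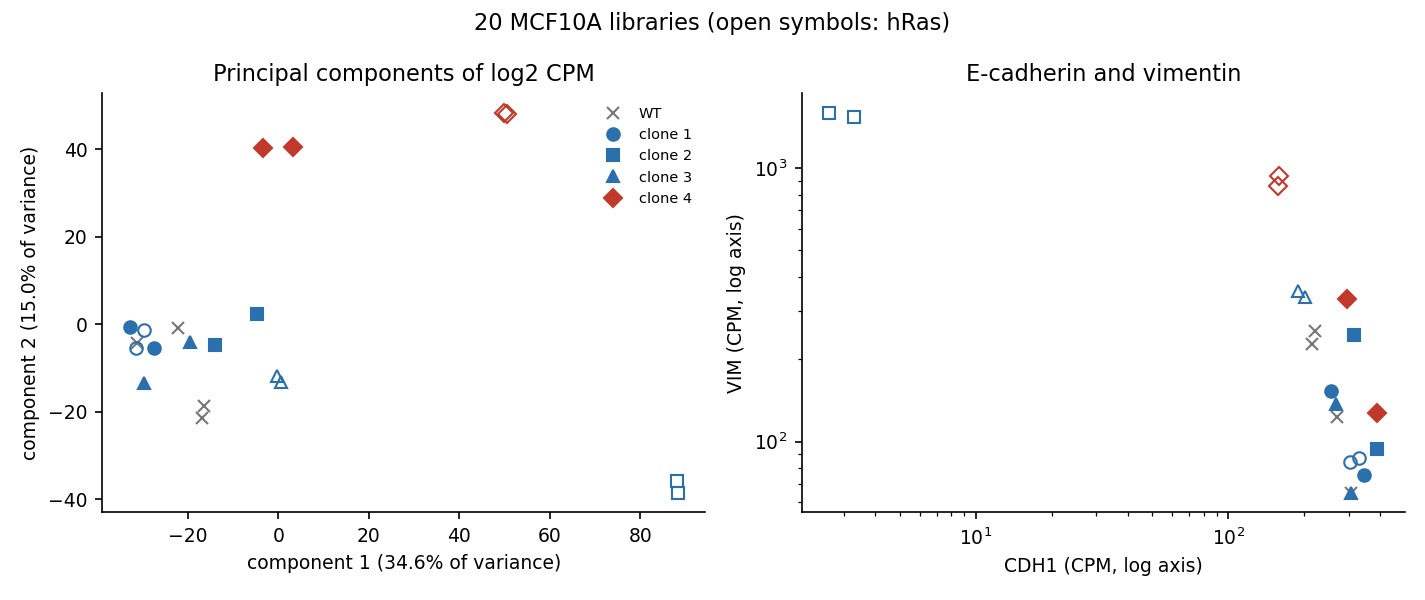
Left, first and second principal component of log2 CPM for the 20 MCF10A libraries. Right, CDH1 against VIM in CPM on log axes. Clone 4 lies between 40.3 and 48.4 on the second component, and the 2 libraries of clone 2 with hRas lie at the far right of the first component with CDH1 at 3.3 and 2.63 CPM.

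The shift of an arm was taken in each library as the median log2 CPM difference of its genes from clones 1 to 3 of the same hRas status, relative to the same median over the other autosomal arms. For 19q, with 601 genes, the shift in clone 4 was 0.52 and 0.39 without hRas and 0.42 and 0.48 with hRas. Its mean of 0.45 ± 0.06 (SD, n = 4) on the log2 scale corresponds to 136.5% of the level in clones 1 to 3. The 12 libraries of clones 1 to 3 lay between -0.08 and 0.09 and the 4 WT libraries between -0.12 and 0.01, so that no library of another clone came near clone 4. Expression strictly proportional to dose would give 0.58 for a step from 2 to 3 copies and 0.42 for a step from 3 to 4 copies, but the copy number of 19q was not measured. These values chose the clone and are a description with no test. The short arm of the same chromosome (19p, 474 genes) was between -0.03 and 0.14 in clone 4, against -0.08 to 0.07 in clones 1 to 3. Among arms with at least 30 tested genes, 19q was the one on which every library of clone 4 shifted by more than 0.2, in the same direction and beyond the values of the other clones.

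**Figure D2:**
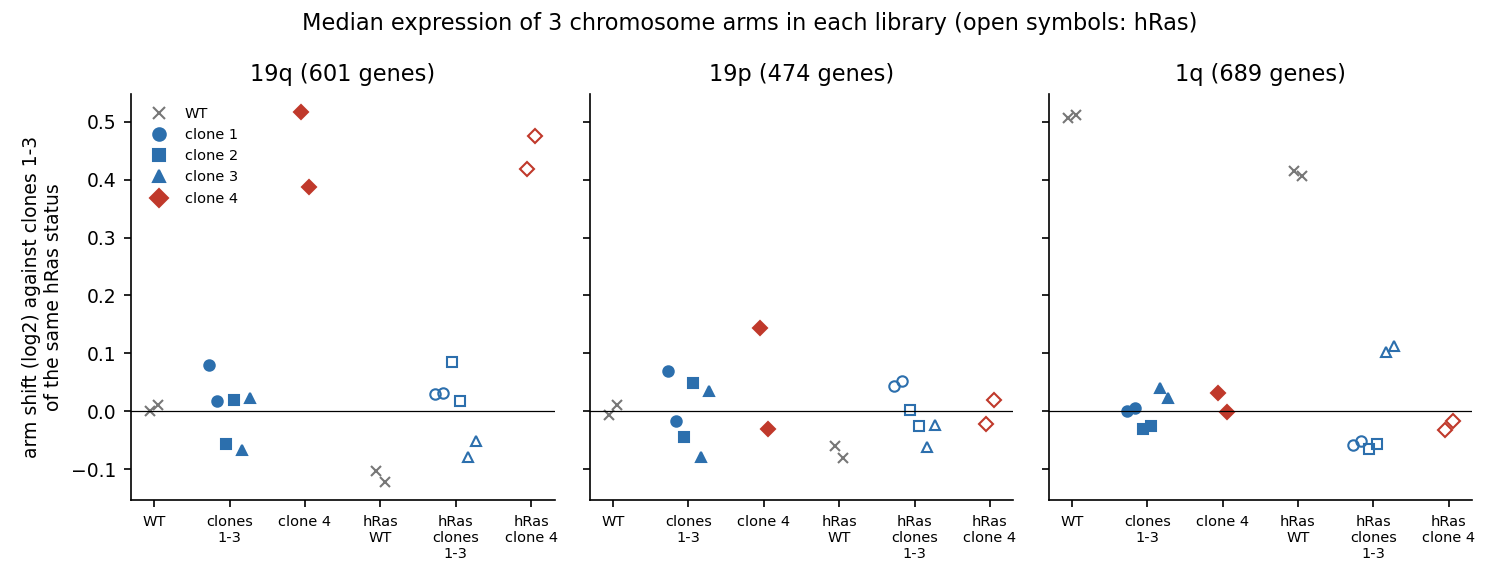
Arm shift in log2 for each MCF10A library, by group. The 4 libraries of clone 4 lie between 0.39 and 0.52 on 19q, and every other library lies between -0.12 and 0.09.

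The step along chromosome 19 fell at the centromere. In windows of 5 Mb, the last window of the short arm (25 genes) had a mean shift of -0.003 in clone 4, and the first window of the long arm (11 genes) had 0.42. The remaining windows of the long arm had 0.30, 0.45, 0.47, 0.50, 0.45 and 0.42 in order toward the telomere. In each of these 7 windows all 4 libraries of clone 4 lay above the range of clones 1 to 3. Between 89.7% and 94.6% of the genes per window had a log2 fold change above 0, so the shift ran over the whole arm with no window at the level of the short arm.

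**Figure D3:**
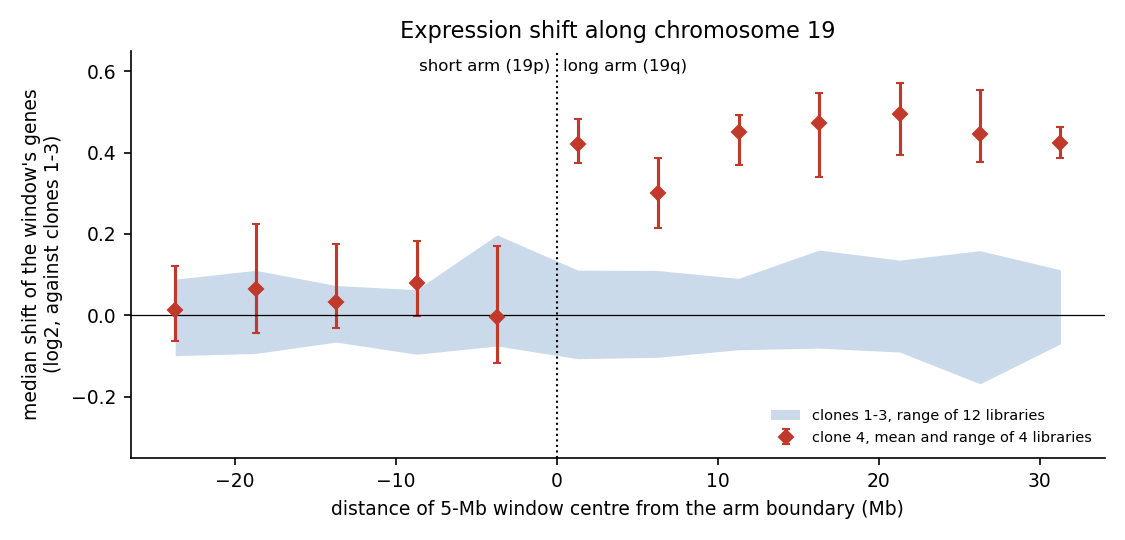
Median expression shift of genes in 5-Mb windows along chromosome 19, by distance from the boundary of the arms in Mb. Diamonds and bars are the mean and range of the 4 libraries of clone 4, and the band is the range of the 12 libraries of clones 1 to 3. The mean shift goes from -0.003 in the last window of the short arm to 0.42 in the first window of the long arm.

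The tables list 1675 genes on 19q, of which 834 are protein-coding, and 601 passed the filter on low counts, 511 of them protein-coding. The median log2 fold change of the 601 was 0.41 (quartiles 0.22 and 0.67), 0.44 without hRas and 0.38 with hRas. Of the 601 genes, 557 were above 0, 265 were called higher (44.1%) and 2 were called lower (0.333%), or 44.4% in either direction. In 208 of them (34.6%) all 4 libraries of clone 4 were above the range of clones 1 to 3 of the same hRas status, and in 1 (0.166%) all 4 were below. The median over all tested genes outside 19q was -0.03, of which 8.25% were called higher and 10.5% lower. Over all 15371 genes tested 9.65% were called higher and 10.1% lower (19.8% in either direction), and 5.43% lay above and 4.9% below the range. Since the same contrast chose the clone, nothing is read from these shares. The size of the shift differed with the level of expression, with medians of 0.67, 0.46, 0.40 and 0.29 for protein-coding genes with a mean CPM under 1 (59 genes), of 1 to 10 (149 genes), of 10 to 100 (207 genes) and above 100 (96 genes). The filter and the mean CPM include clone 4, which can favour low genes that are high in it. With no filter on low counts the 19q shift was 0.36. The 149 zinc-finger genes of 19q had a median of 0.40 and the 332 zinc-finger genes elsewhere 0.01.

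Groups of 19q genes are described below by role, and nothing is read from their counts, since 92.7% of all 601 genes were above 0 and 44.1% were called higher. All 8 tested ribosomal protein genes of 19q had a log2 fold change above 0, with a median of 0.38, while the 70 on other arms had a median of -0.04. RPS19, a protein of the small subunit, was at 1353, 1181, 1356 and 1326 CPM in the 4 libraries of clone 4 (the 2 without hRas first, here and below). In clones 1 to 3 it was at 796 to 943 CPM without hRas (median 886) and 971 to 1080 CPM with hRas (median 1028), so that the groups did not overlap, and its log2 fold change was 0.45. RPL13A, of the large subunit, was at 2779.8, 2492, 2660 and 2695 CPM in clone 4 and at 1886 to 2362 CPM in clones 1 to 3. RPS9 was the one member of the list that was not called, with a log2 fold change of 0.08 and overlapping groups.

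Among growth and kinase genes of 19q, 14 of 22 were called higher and none lower (44.1% higher over 19q). LTBP4, which binds latent TGF-beta in the matrix, had the largest log2 fold change of the list at 1.01. It was at 221.8, 218.5, 300.2 and 306.2 CPM in clone 4, against 87.9 to 143 CPM (median 108) without hRas and 121 to 205 CPM (median 126) with hRas in clones 1 to 3, with no overlap. The cytokine gene TGFB1 itself was at 218, 217, 329 and 349 CPM, with a log2 fold change of 0.31 that was not called, and with hRas 1 of its 2 levels lay within and 1 above the range of 221 to 334 CPM in clones 1 to 3. The kinase genes DYRK1B, MAP3K10, PAK4 and AKT2 had log2 fold changes of 0.82, 0.76, 0.37 and 0.27, and RRAS, a relative of HRAS, had 0.78. CCNE1, which encodes cyclin E1, had -0.06, and the receptor kinase gene AXL had 0.18 with an SE of 0.25, which leaves its distance from the arm's median of 0.41 within the error.

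Among transcription and stress response genes of 19q, 7 of 10 were called higher (44.1% over 19q). RELB, a subunit of NF-kB, was at 27.1, 31.9, 38.3 and 43.8 CPM in clone 4, against 9.67 to 22.0 CPM (median 17.1) without hRas and 12.3 to 22.1 CPM with hRas in clones 1 to 3. The groups did not overlap, and the log2 fold change of 1.09 was beyond that of the arm. BCL3 and NFKBIB, which bind NF-kB subunits, had log2 fold changes of 0.06 and 0.19 and were not called. PPP1R15A, which restarts translation after stress, had 0.86 and ZFP36, which destabilises cytokine mRNA, had 0.64.

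The death genes of 19q were mixed. BAX, which permeabilises mitochondria in apoptosis, was at 115.7, 101.8, 110.9 and 114.3 CPM in clone 4. In clones 1 to 3 it was at 62.5 to 81.9 CPM (median 69.5) without hRas and 74.6 to 102 CPM (median 84.6) with hRas, which gave no overlap and a log2 fold change of 0.48. PPP1R13L, which encodes the p53 inhibitor iASPP, had a log2 fold change of 0.86, BBC3 (PUMA) had 0.49 and was not called, and BCL2L12 had -0.06.

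In 3 further groups of 19q the shares called were near the 44.1% of the arm. In DNA repair 3 of 6 were called higher, among them ERCC1 and ERCC2 of excision repair (0.42 and 0.52), while XRCC1 and the replication enzymes LIG1 and POLD1 were not (0.16, -0.01 and 0.04). In the list of proteasome, splicing and elongation genes 5 of 12 were called higher, with SUPT5H at 0.48 and the U1 snRNP gene SNRPA at -0.27. Of 9 tested mitochondrial genes 4 were called higher, with ETHE1, which oxidises sulfide, at 0.71. None of the 7 tested kallikrein genes was called, and KLK7 was at 50.4, 13.1, 6.4 and 4.9 CPM in clone 4, which overlapped the 0 to 17.1 CPM of clones 1 to 3. The largest log2 fold changes on 19q at a mean CPM of at least 10 were those of MEIS3 (1.46), KCNK6 (1.37), LYPD3 (1.20), APLP1 (1.18) and LENG8 (1.14). The smallest were those of SNRPA (-0.27), FBXO17 (-0.23), ZNF551 (-0.21), HNRNPL (-0.12) and ZNF180 (-0.09).

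Over the whole of 1q, the arm that the editing targeted, no difference between clone 4 and the other clones passed the test, while 1 window of it lay apart. The 1q shift of clone 4 was between -0.03 and 0.03, against -0.06 to 0.11 in clones 1 to 3, and WT lay at 0.41 to 0.51. The difference between clone 4 and clones 1 to 3 was -0.005 (two-sided exact permutation test within hRas states over 784 arrangements, p = 0.931, smallest possible p 0.00255). MDM4, an inhibitor of p53 on 1q, was at 13.4, 18.6, 20.1 and 19.7 CPM in clone 4 and at 15.1 to 20.5 CPM in clones 1 to 3, and UCK2, a uridine kinase gene on 1q, had a log2 fold change of -0.26 (SE 0.12) that was not called. Of 295 windows of 10 Mb along the genome, 4 had all 4 libraries of clone 4 past 0.2 and outside the range of clones 1 to 3, and 1 of these was not on chromosome 19. It covered 140 to 150 Mb of chromosome 1, on the edited arm, with 66 genes, where clone 4 lay between 0.25 and 0.36, clones 1 to 3 between -0.30 and 0.19 and WT between -0.18 and 0.13.

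Outside 19q, 14770 genes were tested with edgeR's quasi-likelihood test with hRas status as a block. At an adjusted p under 0.05, 1219 were called higher in clone 4 (8.25%) and 1553 lower (10.5%). With scaling factors taken over genes outside 19q and 1q, 1304 were called higher and 1389 lower. With RLE scaling they were 1303 and 1385, so the excess of lower calls was smaller in both. Large differences were mostly increases, since 321 of the genes called higher and 70 of those called lower differed by at least 1 on the log2 scale. In 626 genes (4.24%) all 4 libraries of clone 4 were above the range of clones 1 to 3 of the same hRas status, and in 752 genes (5.09%) all 4 were below. Without the 2 libraries of clone 2 with hRas the counts were 2154 higher (14.8%) and 2722 lower (18.7%), which included 1199 and 1543 of the genes called with them. The counts were lower in fits that treat the 2 replicates of a clone and hRas state as related. These fits still take the 2 hRas states of a clone as independent. The limma-voom fit had a correlation of 0.50 between the replicates of a clone and hRas state (called the within-clone correlation below). With it, 620 of the 1219 and 496 of the 1553 were called in the same direction (7.7% of genes outside 19q in either direction). With the 2 replicates of each clone and hRas state summed, 50 and 18 were (0.46% in either direction).

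The 10 largest increases outside 19q under the naming rule were those of POSTN, ANKRD1, CRYAB, IGFBP3, BDH1, HSD17B2, PTGS2, PPBP, NEDD9 and FN1, of which POSTN and FN1 encode matrix proteins. FN1, which encodes fibronectin, the fibrous matrix protein that integrins bind (ENSG00000115414, chr2:215360440-215436172, GRCh38), was at 5121 and 8629 CPM in clone 4 without hRas and at 22525 and 23178 CPM with hRas. In clones 1 to 3 it was at 464 to 2073 CPM (median 1133) without hRas and at 761 to 3800 CPM (median 1116) with hRas, and in WT at 811 to 2199 CPM. All 4 libraries of clone 4 were above every other library, and FN1 rose by 3.17 on the log2 scale (SE 0.42, edgeR adjusted p = 0.000135). POSTN encodes periostin, a matrix protein of connective tissue (ENSG00000133110, chr13:37562583-37598844). It was at 0.655 and 1.7 CPM in clone 4 without hRas, where all 6 libraries of clones 1 to 3 had 0 counts, which makes it at least 8.63-fold higher against a floor of 3 counts per library. With hRas it was at 127 and 128 CPM in clone 4 and at most 0.876 CPM in clones 1 to 3, a ratio of the means of 610 over 31 counts in all 6 libraries. ANKRD1, a nuclear ankyrin repeat protein gene and a known YAP target (ENSG00000148677, chr10:90912096-90921276), was at 1.87, 3.00, 97.2 and 89.1 CPM in clone 4 and at 0 to 1.78 CPM in clones 1 to 3. ANKRD1 was thus above every other library in both states, with a log2 fold change of 5.72 (SE 0.73, edgeR adjusted p = 9.8e-05).

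The promoters of these 3 genes, from RefSeq on GRCh38.p14 (250 bases before and 50 after the start site, on the strand of the gene), are shown because the genes moved together. Capitals mark matches to TGANTCA, a loose form of the site of the AP-1 factors in which N is any base. They also mark GGAATG, a site of the TEAD factors that YAP works through. Both strands were searched and no matches overlapped. The windows are chr10:90921038-90921337 (minus strand) for ANKRD1, chr13:37598719-37599018 (minus strand) for POSTN and chr2:215436019-215436318 (minus strand) for FN1.
ANKRD1: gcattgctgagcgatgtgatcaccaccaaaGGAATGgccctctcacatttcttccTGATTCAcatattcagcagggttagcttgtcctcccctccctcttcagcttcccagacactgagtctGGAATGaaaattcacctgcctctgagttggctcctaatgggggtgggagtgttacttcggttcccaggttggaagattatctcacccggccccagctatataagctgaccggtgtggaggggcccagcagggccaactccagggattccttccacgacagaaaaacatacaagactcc
POSTN: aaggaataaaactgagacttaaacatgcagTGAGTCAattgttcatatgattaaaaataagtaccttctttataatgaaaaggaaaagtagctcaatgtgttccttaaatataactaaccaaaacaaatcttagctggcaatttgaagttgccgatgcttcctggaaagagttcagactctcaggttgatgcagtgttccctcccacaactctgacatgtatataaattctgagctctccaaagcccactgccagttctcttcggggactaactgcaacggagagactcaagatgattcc
FN1: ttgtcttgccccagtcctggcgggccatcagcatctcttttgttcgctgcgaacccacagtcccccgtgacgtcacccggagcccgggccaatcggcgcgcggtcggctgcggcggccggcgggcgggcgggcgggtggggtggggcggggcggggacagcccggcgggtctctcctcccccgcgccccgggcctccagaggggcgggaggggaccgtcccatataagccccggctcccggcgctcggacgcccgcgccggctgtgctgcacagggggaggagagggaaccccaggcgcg
The ANKRD1 window held 1 match to the loose AP-1 letters (TGATTCA) and 2 to the TEAD letters. The POSTN window held 1 match to the loose AP-1 letters (TGAGTCA), and the FN1 window none. Of all 35116 RefSeq promoter windows, 7.71% held TGANTCA and 14.03% held GGAATG, and of the 10615 windows of genes tested 4.85% and 10.89%. Of the 11 TGF-beta target genes with a window 0 held TGANTCA and 2 held GGAATG. A match is a description of the letters and not a measured site.

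IGFBP3, which binds insulin-like growth factors outside the cell (ENSG00000146674, chr7:45912245-45921874), was at 90.5 and 128 CPM in clone 4 without hRas and at 1155 and 1084 CPM with hRas. Clones 1 to 3 had 7.31 to 12.2 CPM (median 8.80) without hRas and 10.8 to 87.7 CPM (median 60.7) with hRas, and WT had at most 12.3 CPM. The groups did not overlap in either state, and IGFBP3 rose by 4.02 on the log2 scale (SE 0.37, edgeR adjusted p = 5.72e-06). The other genes among the 10 were CRYAB, a small heat shock protein gene (4.43), BDH1 of ketone body metabolism (3.86), HSD17B2 of sex steroid oxidation (3.48), PTGS2 (3.46), the chemokine gene PPBP (3.45) and NEDD9, a scaffold of focal adhesions (3.39). PPBP was at 0.421 and 0.258 CPM in clone 4 without hRas, so that its value rests on the libraries with hRas at 9.52 and 6.54 CPM. BDH1 was at 1.67 to 6.19 CPM in WT, which made clones 1 to 3 (at most 0.882 CPM) the low side, and clone 4 was at 2.46 to 9.24 CPM.

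**Figure D4:**
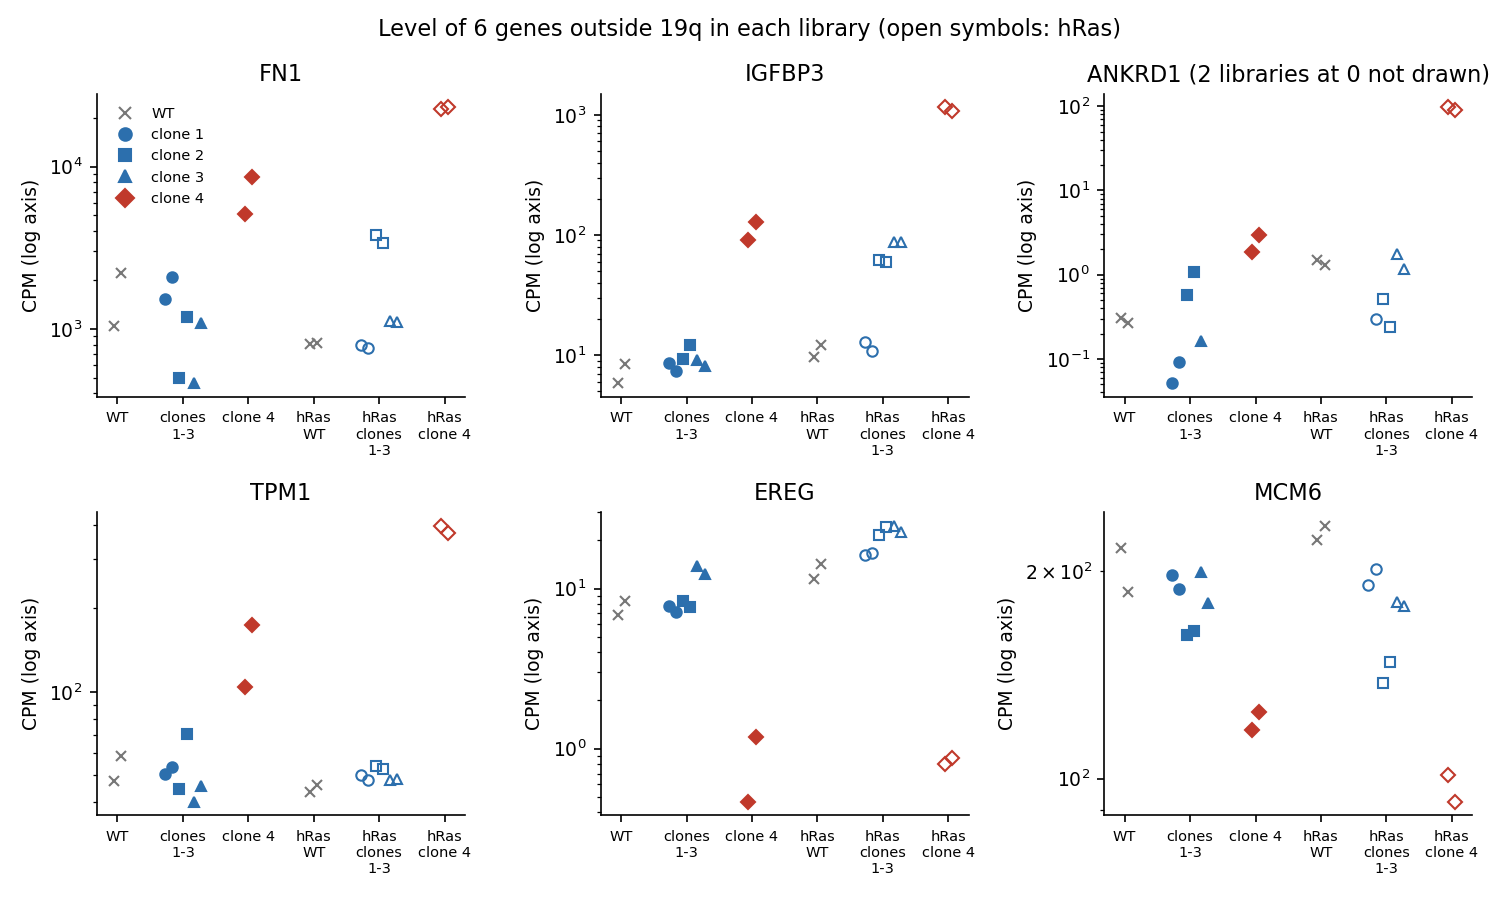
CPM of 6 genes in each MCF10A library on log axes, by clone and hRas status. FN1, IGFBP3, ANKRD1 and TPM1 are above every other library in all 4 libraries of clone 4, EREG and MCM6 are below every other library, and 2 libraries with 0 counts of ANKRD1 are not drawn.

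The list of TGF-beta target genes covers matrix, cytoskeletal and feedback genes that this cytokine is known to induce. All 14 had a log2 fold change above 0, with a median of 0.90 beside -0.03 over all genes outside 19q, and 9 were called higher and none lower, against a background of 8.25% higher. Without the 2 libraries of clone 2 with hRas 14 were called higher, and with limma-voom 7. TPM1, a tropomyosin of actin filaments, was at 104, 173, 396 and 374 CPM in clone 4 and at 40.2 to 70.2 CPM without hRas (median 48.3) and 47.9 to 54.1 CPM with hRas (median 49.2) in clones 1 to 3. Its groups did not overlap, and it rose by 2.29 (SE 0.21, edgeR adjusted p = 5.61e-06). The matricellular genes CCN2 and CCN1 rose by 1.53 and 1.46. CCN2 was at 27.9, 51.1, 373 and 344 CPM in clone 4, inside or just above the 16 to 36.5 CPM of clones 1 to 3 without hRas and above their 25.7 to 162 CPM with hRas. TAGLN, PMEPA1, COL4A1, TGFBI, THBS1 and COL4A2 also rose, by 1.09, 0.93, 0.99, 0.87, 0.84 and 0.69, of which limma-voom did not call TGFBI and COL4A2. SMAD7, SKIL, LTBP2 and ITGB6 were among the 5 that were not called, with 0.47, 0.55, 0.80 and 0.87.

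The median of the list was 0.45 in the libraries without hRas, where 2 of the 14 were called higher beside 2.48% of genes outside 19q, and 1.33 in those with hRas, where 8 were called higher beside 3.53%. The difference between the states passed the test for none of the 14, and TPM1 had an interaction of 1.5 (SE 0.26, edgeR adjusted p = 0.0832). The level of HRAS mRNA, which counts the transgene too, was 236 and 230 CPM in clone 4 with hRas, 154 to 161 CPM in clones 1 and 3 with hRas and 412 and 365 CPM in clone 2 with hRas, and its part in these values was not tested. Over both states HRAS had a log2 fold change of -0.04 and was not called.

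Of 15 tested genes that NF-kB is known to induce, 8 were called higher and none lower, against a background of 8.25% higher (5 higher with limma-voom, and 10 higher and 1 lower without the 2 libraries of clone 2 with hRas), with a median of 0.83. TNFAIP3, a deubiquitinase that restrains the pathway, was at 12.8, 25.8, 53.7 and 58.7 CPM in clone 4, and clones 1 to 3 were at 4.63 to 12.8 CPM (median 9.46) without hRas and 11.9 to 23.6 CPM (median 12.9) with hRas. The lower value of clone 4 without hRas was within the range of clones 1 to 3, and with hRas the ranges were apart, and TNFAIP3 rose by 1.5 (SE 0.26, edgeR adjusted p = 0.00101). The chemokine genes CXCL3, CXCL2, CXCL1 and CCL20 rose by 2.09, 1.01, 0.88 and 0.83, and NFKB2, the subunit gene whose product pairs with RELB, by 0.84. BIRC3 rose by 0.63 and the inhibitor gene NFKBIA by 0.34. With limma-voom CXCL1, CXCL2, BIRC3 and NFKBIA were no longer called, and SAA1 was called. NFKB1, ICAM1, SOD2, CXCL8, IL1A, IL1B and SAA1 were not called. PTGS2, which encodes the inducible prostaglandin synthase COX-2 and lies on 1q, was at 28.3, 55.7, 69.3 and 61.4 CPM in clone 4 against 2.86 to 6.98 CPM in clones 1 to 3 and 4.57 to 14.6 CPM in WT. No other library reached the level of clone 4, and PTGS2 rose by 3.46 (SE 0.21, edgeR adjusted p = 4.97e-08).

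Replication and mitosis genes were lower in clone 4. Of 20 tested, 18 were called lower and none higher, with a median of -0.49, against a background of 10.5% called lower. With limma-voom 13 were called lower, and without the 2 libraries of clone 2 with hRas 19 were. Among the libraries without hRas 12 were called lower (median -0.39) beside 1.9% of genes outside 19q, and among those with hRas 7 (median -0.63) beside 2.0%. MCM6, a subunit of the replicative helicase (ENSG00000076003, chr2:135839626-135876426), was at 118, 125, 101 and 92.6 CPM in clone 4. Clones 1 to 3 were at 162 to 200 CPM (median 184) without hRas and 138 to 201 CPM (median 179) with hRas, and WT at 186 to 233 CPM. The groups did not overlap, and MCM6 fell by 0.71 on the log2 scale (SE 0.10, edgeR adjusted p = 0.000204). The helicase genes MCM2, MCM3, MCM7, MCM4 and MCM5 fell by 0.77, 0.67, 0.64, 0.62 and 0.62, and the sliding clamp gene PCNA by 0.63. Among mitotic genes CCNB1 fell by 0.56, CCNA2 by 0.54, PLK1 by 0.53, BUB1 by 0.38, TOP2A by 0.29 and AURKA by 0.23. CDK1 and AURKB, with -0.17 and -0.36, were not called, and with limma-voom AURKA was not called either. The sum of the 20 genes was 2719 to 3226 CPM in clone 4, 3487 to 4631 CPM in clones 1 to 3 and 4393 to 4721 CPM in WT. CDKN1A, which encodes the cyclin-dependent kinase inhibitor p21, was at 559, 511, 582 and 614 CPM in clone 4, at 178 to 397 CPM without hRas and 262 to 543 CPM with hRas in clones 1 to 3, and at 155 to 196 CPM in WT. Clone 4 was above the range of clones 1 to 3 in both states, and CDKN1A rose by 0.74 (SE 0.19, edgeR adjusted p = 0.0127).

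The promoters of 3 of these genes are shown for the CCAAT box, the 5 letters that the factor NF-Y binds, with matches to CCAAT on either strand in capitals (ATTGG where the match is on the opposite strand). GCGGGAA, a form of the E2F core, was searched as well and had no match in these windows, and no matches overlapped. Other forms were not searched, among them the letters gcgcgaa that the MCM6 window holds. No absence of E2F sites is therefore read from this search, here or in the shares below. The windows on GRCh38.p14 are chr17:40417847-40418146 (minus strand) for TOP2A, chr5:69166900-69167199 (plus strand) for CCNB1 and chr2:135876394-135876693 (minus strand) for MCM6.
TOP2A: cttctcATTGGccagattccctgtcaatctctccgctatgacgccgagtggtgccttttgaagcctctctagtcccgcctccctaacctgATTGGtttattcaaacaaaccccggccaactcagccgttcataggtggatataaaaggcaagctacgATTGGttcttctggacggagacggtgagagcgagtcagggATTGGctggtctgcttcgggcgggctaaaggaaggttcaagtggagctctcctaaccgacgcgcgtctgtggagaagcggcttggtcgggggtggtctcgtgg
CCNB1: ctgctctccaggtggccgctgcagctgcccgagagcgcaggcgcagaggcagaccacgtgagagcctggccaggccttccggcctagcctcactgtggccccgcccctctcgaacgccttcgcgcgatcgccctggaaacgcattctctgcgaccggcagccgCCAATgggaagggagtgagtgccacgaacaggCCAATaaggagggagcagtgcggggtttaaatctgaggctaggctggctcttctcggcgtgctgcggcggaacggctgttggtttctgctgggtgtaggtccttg
MCM6: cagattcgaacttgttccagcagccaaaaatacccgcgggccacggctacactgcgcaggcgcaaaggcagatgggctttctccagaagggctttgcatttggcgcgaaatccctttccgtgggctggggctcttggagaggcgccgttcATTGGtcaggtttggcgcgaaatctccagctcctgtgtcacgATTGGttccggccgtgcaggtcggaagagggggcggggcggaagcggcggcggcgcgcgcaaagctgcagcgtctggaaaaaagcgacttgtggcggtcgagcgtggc
The windows held 4, 2 and 2 matches to CCAAT. Of the 20 genes of the list 16 had a promoter in the RefSeq table, and 14 of these (87.5%) held CCAAT and 4 held GCGGGAA, against 34.6% and 6.55% of all 35116 windows and 36.4% and 10.25% of the 10615 windows of genes tested.

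The list of ligands and feedback genes of the RAS and MAPK pathway held 1 of the largest decreases. EREG, which encodes epiregulin, a ligand of the EGF receptor (ENSG00000124882, chr4:74365143-74388751), was at 0.468, 1.19, 0.798 and 0.869 CPM in clone 4. In clones 1 to 3 it was at 7.09 to 13.8 CPM (median 8.06) without hRas and 16.2 to 24.6 CPM (median 22.1) with hRas, and in WT at 6.80 to 14.2 CPM. Every library of clone 4 was below every other library, and EREG fell by 4.11 on the log2 scale (SE 0.31, edgeR adjusted p = 9.43e-07). The genes of 2 other ligands of the same receptor, AREG and HBEGF, had log2 fold changes of 0.15 and 0.00 and were not called. Of the 16 genes of the list 2 were called higher (DUSP5 by 0.40 and DUSP4 by 0.35, phosphatases that act on MAP kinases) and 4 lower (EREG, FOSL1 by 0.49, ETV4 by 0.37 and SPRED2 by 0.21), beside backgrounds of 8.25% and 10.5%. With limma-voom EREG alone was called. The counts were 5 higher and 5 lower without the 2 libraries of clone 2 with hRas, beside 14.8% and 18.7% in that fit.

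The largest decreases included several genes that clones 1 to 3 expressed unevenly. EEF1A2, a translation elongation factor gene of muscle and nerve, was at most 0.258 CPM in clone 4 and at 1.91 to 105 CPM in clones 1 to 3, and it fell by 7.94 (SE 1.93, edgeR adjusted p = 0.00900). CPVL, a carboxypeptidase gene, was at 0.319 to 0.529 CPM in clone 4, 3.42 to 15.8 CPM in clones 1 to 3 and 9.03 to 11 CPM in WT, so that clone 4 was the one low clone, and it fell by 4.19. SHISAL1 fell by 3.62, but WT, at 0.237 to 1.25 CPM, overlapped the 0.0532 to 0.723 CPM of clone 4. CRAT of carnitine metabolism, the protease genes ADAM8 and ADAM11, SLITRK4, the transcription factor gene ETV1 and the meiotic recombinase gene DMC1 fell by 2.52, 2.13, 1.70, 1.61, 1.58 and 1.35. With limma-voom EEF1A2, SHISAL1, ADAM8, ADAM11, ETV1 and DMC1 were no longer called.

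Of 13 tested genes of the epithelial-mesenchymal list 1 was called, FN1, beside a background of 18.8% either way. Without the 2 libraries of clone 2 with hRas 7 were called higher and 3 lower, beside 14.8% and 18.7% of genes in that fit. Among these, VIM rose by 1.46 and the repressor gene ZEB1 by 1.49, and EPCAM fell by 1.29. That fit left out libraries set apart after their low EPCAM and high VIM, genes of this list, had been seen. Leaving them out moves VIM and ZEB1 up and EPCAM down in clone 4 by construction, so nothing is read from these calls. VIM was at 127 and 333 CPM in clone 4 without hRas, of which the first was within the 64.8 to 246 CPM of clones 1 to 3, and at 937 and 862 CPM with hRas, where clones 1 and 3 had 84.4 to 355 CPM. EPCAM was at 74.2, 59.9, 33.1 and 32.0 CPM in clone 4 and at 83.8 CPM or more in every library of clones 1 to 3 other than clone 2 with hRas. CDH1 in clone 4 without hRas, at 388 and 294 CPM, was within the 256 to 389 CPM of clones 1 to 3. With hRas it was at 158 and 157 CPM in clone 4, 329 and 304 CPM in clone 1, where VIM was at 87.3 and 84.4 CPM, 189 and 202 CPM in clone 3, where VIM was at 355 and 338 CPM, and 214 and 220 CPM in WT, where VIM was at 228 and 254 CPM.

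Of 7 basal markers 1 was called higher and 1 lower, beside backgrounds of 8.25% and 10.5% that also serve for the luminal and squamous lists. The basal keratin gene KRT14 was at 5.25 to 7.02 CPM in clone 4 and fell by 3.52 (SE 0.79, edgeR adjusted p = 0.00584), but clone 3 without hRas was as low, at 3.70 and 6.54 CPM, and limma-voom did not call KRT14. LAMB3, a subunit of the basement membrane protein laminin-332, rose by 0.99. GATA3, a luminal transcription factor gene, rose by 0.60, and 1 of 7 luminal genes was called. Of 17 tested squamous differentiation genes 2 were called higher, IVL, which encodes the cornified envelope protein involucrin (2.14), and TGM1, which encodes an enzyme that cross-links it (1.47). IVL was at 16.4 to 23 CPM in clone 4 in both states and at 0.319 to 7.83 CPM in clones 1 to 3, without overlap. TGM1 was at 65.7 and 25.15 CPM without hRas but at 12.3 and 7.75 CPM with hRas, where it overlapped the 1.39 to 8.97 CPM of clones 1 to 3, and without replicate 1 of clone 4 without hRas its log2 fold change was 0.89 and was not called.

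**Figure D5:**
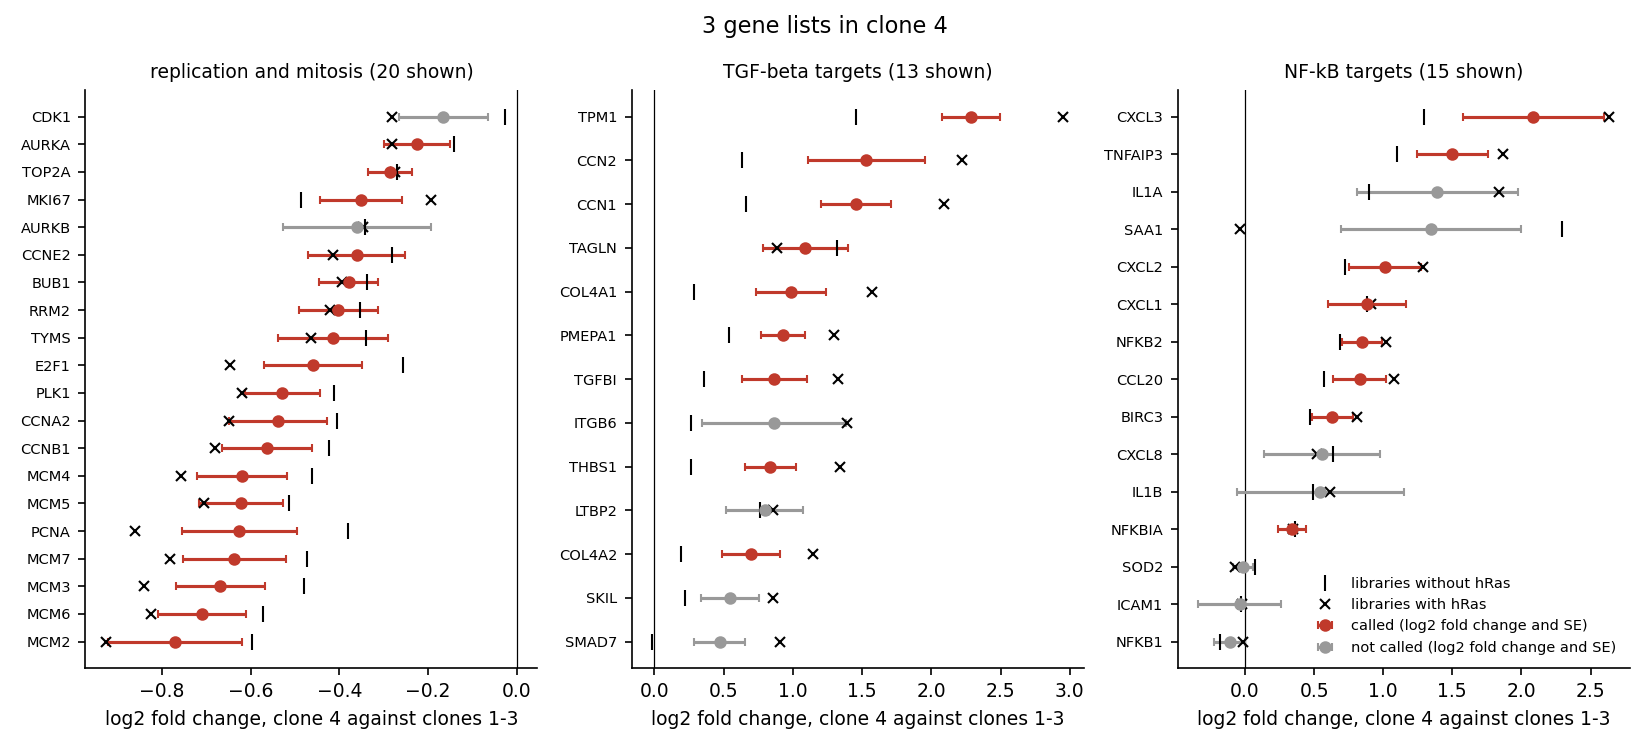
Log2 fold change of clone 4 against clones 1 to 3 with its SE for 20 replication and mitosis genes, 13 of the 14 TGF-beta target genes and 15 NF-kB target genes. Bars and crosses give the value in libraries without and with hRas. The 20 genes of the first panel lie below 0 and the 13 of the second above 0.

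The remaining lists are set beside 8.25% of genes called higher, 10.5% lower and 18.8% either way outside 19q. Of 12 tested p53 target genes outside 19q 1 was called, CDKN1A, and MDM2, the p53 ligase gene, had 0.16 (SE 0.14). Without the 2 libraries of clone 2 with hRas 3 were called higher, beside 14.8% of genes in that fit. Of 13 interferon-stimulated genes 1 was called, MX1, which fell by 2.07 at no more than 2.17 CPM in any of the 16 libraries. Of the interferon-stimulated genes 2 were called higher and 2 lower without the 2 libraries of clone 2 with hRas, beside 14.8% and 18.7% in that fit. Of 12 genes of class I antigen presentation 2 were called, the transactivator gene NLRC5 (-0.60) and the immunoproteasome gene PSMB8 (-0.36), while HLA-B and HLA-C had 0.14 and 0.02. Of 19 cholesterol synthesis genes 4 were called higher, MVD, IDI1, LSS and MSMO1, by 0.44, 0.41, 0.28 and 0.28. Of 16 folding and amino acid stress genes 4 were called higher, CHAC1 (1.59), HERPUD1 (0.64), XBP1 (0.28) and DNAJB1 (0.27), and the chaperone gene HSP90AA1 fell by 0.48. With limma-voom MX1, NLRC5, PSMB8, MSMO1, XBP1 and DNAJB1 were no longer called.

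Whether the differences of clone 4 depended on hRas was tested with an interaction term over 16298 genes. The difference between the states passed the threshold for 2 genes (0.0123%), DDAH1 and ANXA2R, and 979 genes had an unadjusted p under 0.05. Without the 2 libraries of clone 2 with hRas the count was 354, and with limma-voom it was 0 (302 genes at an unadjusted p under 0.05). ANXA2R, the annexin A2 receptor gene (ENSG00000177721, chr5:43039081-43043170), was at 33.1 and 36.1 CPM in clone 4 with hRas, and at 0.457 CPM or less in the other 14 libraries of the comparison. Its place among the genes tested rests on the 2 libraries where it was high, so its call is a description.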

How the data were processed

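RNA of MCF10A cells was sequenced from poly-A libraries, and the deposited tables give whole-number read counts per gene, per the file headers. The submitters' processing notes name HISAT2 2.0.5, featureCounts 1.5.0-p3 and hg38. The role of each tool is not given in the sources used here, nor whether counting used strand. Groups came from the labels.

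The counts of 16 libraries were fitted with edgeR 4.0.16 (R 4.3.3; filterByExpr with a minimum count of 10, TMM, quasi-likelihood test, hRas status as a block), and p-values were adjusted by Benjamini-Hochberg over all 15371 genes tested, with calls at 0.05. CPM values used TMM sizes over the 20 MCF10A libraries. Alternatives were DESeq2 1.42.0, limma 3.58.1 voom and summed replicates. In voom the 2 replicates of each clone and hRas state were a correlated block. Other scaling factors were also used. Arm shifts used log2 CPM with a prior count of 2, arms of at least 30 genes and windows of at least 10. The fits were tested on simulated data.

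The clone, gene lists and comparisons were chosen with earlier results of these data known. Genes outside 19q were named by a rule: the 10 largest called increases and decreases among protein-coding genes with a mean CPM of at least 1 whose groups did not overlap, up to 4 called members per list by size, and genes of the interaction test. Further list members are named to complete a group. On 19q, the 5 largest and 5 smallest changes at a mean CPM of at least 10 and members of the lists are named. CCN1 and CCN2 are listed as CYR61 and CTGF in the tables and were matched by identifier. The 2 replicates of a group differed beyond sampling noise in every pair (chi-square per degree of freedom of 3.63 to 23.7). Values of some list members are not reported here. Promoters came from RefSeq (GRCh38.p14).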

Additional observations from a re-analysis of the deposited data

Results flagged for a closer look

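The interaction of clone 4 with hRas passed the threshold in 2 genes. DDAH1, an enzyme that degrades methylated arginines (chr1:85318481-85578363, GRCh38), had an interaction of 1.39 on the log2 scale (edgeR adjusted p = 0.00123). Its levels in clone 4 were 23.7 and 27.3 CPM without hRas and 62.3 and 57.6 CPM with hRas, against 26.4 to 32.5 CPM and 24.6 to 30.6 CPM in clones 1 to 3. Clone 4 was therefore high only in the libraries with hRas. ANXA2R had an interaction of 8.16 (edgeR adjusted p = 0.00123), with 623 and 955 counts in clone 4 with hRas and 2 to 8 counts in each library of clones 1 to 3 with hRas, a ratio of the mean CPM of 139. Without hRas it had 1 and 2 counts in clone 4 and at most 10 in clones 1 to 3. The gene met the filter on low counts through the 2 libraries where it was high, so its p-value is a description. Among 46 groups of 4 to 10 values examined for a single outlying library, 0 had one.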

How the results depend on the processing

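The counts of genes called moved by over 1.5 times with several settings. The edgeR fit called 3039 genes in all, and outside 19q 1219 higher and 1553 lower. These counts were 1324, 642 and 496 with limma-voom, which changed the test and the within-clone correlation together, 94, 54 and 18 with replicates summed, and 1, 1 and 0 with all libraries of a clone summed (1708 genes at an unadjusted p under 0.05). They were 815, 367 and 282 in libraries without hRas and 918, 534 and 302 in those with hRas. They were 5851, 2532 and 2992 without clone 2, 1501, 702 and 593 without clone 3, 5201, 2154 and 2722 without the 2 libraries of clone 2 with hRas, and 6240, 2870 and 3021 against WT. Without clone 1, 972 were lower, and with no filter on low counts 932. Leaving out 1 library at a time gave 1443 to 3688 genes in all, 627 to 1457 higher and 617 to 1944 lower. The lowest counts came without replicate 2 of clone 4 with hRas (1443) and without its replicate 1 (1736). DESeq2 called 3459 genes.

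The interaction count of 2 was 37 with DESeq2, 8 with no filter, 0 with limma-voom, 4 without clone 1, 287 without clone 2, 354 without the 2 libraries of clone 2 with hRas, and 0 to 9 leaving out 1 library. The 19q shift of 0.45 was 0.36 with no filter and 0.41 to 0.48 leaving out 1 library. The 1q shift was -0.47 against WT and -0.013 to 0.006 leaving out 1 library. Of 54 called genes outside 19q that the naming rule chose, 35 kept their call with limma-voom, 9 with replicates summed, 0 with all libraries of a clone summed, 27 in libraries without hRas alone, 27 in those with hRas alone, 39 without clone 3 and 52 without the 2 libraries of clone 2 with hRas. Of these genes CCN2, TAGLN, CXCL1, CXCL2, DUSP5, ETV1, ETV4, FOSL1, HERPUD1, XBP1, MSMO1, MX1, NLRC5, PSMB8 and TGM1 were among those that lost their call without at least 1 of the 16 libraries.

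Replicate numbers did not meet the bar for pairing the libraries, a correlation over 0.1 in every pair. The 28 correlations of same-numbered libraries ran from -0.10 to 0.15 (median 0.009), and the 6 among groups without hRas from -0.02 to 0.15 (median 0.092), 2 of them over 0.1. In all 4 clones and WT without hRas VIM was higher and CDH1 lower in the library numbered 2. With the replicate number as a block 2832 genes were called.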

Other observations

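A few genes were at or near 0 in clones 1 to 3 and present in clone 4. Of all genes in the tables, 5 had at most 3 counts in each of the 12 libraries of clones 1 to 3 and more than 3 in all 4 libraries of clone 4, and 0 had the opposite pattern. B3GALNT1, which encodes a glycosyltransferase of globoside synthesis (chr3:161083883-161105384, GRCh38), had 22 to 57 counts in clone 4, 0 counts in all 12 libraries of clones 1 to 3 and 6 to 46 counts in WT, so that it was at least 11.4-fold higher in clone 4 than the floor of 3 counts per library. ABCB1, which encodes the drug efflux pump P-glycoprotein (chr7:87503633-87713323), had 16 to 42 counts in clone 4, 0 to 3 in clones 1 to 3 and 0 to 14 in WT. The other genes were PLEKHG4B, SLAIN1 and ZNF69. These genes were chosen by their counts, so their values are a description.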
